A study of Canis lupus familiaris with 8 samples.

Results

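The proliferating fraction of canine blood T cells was described here as the TCRαβ+ T cells that held at least 3 unique molecular identifiers (UMIs, each marking 1 captured RNA molecule) of MKI67, the gene of the nuclear protein Ki-67. These members numbered 288 of 31909 kept cells. They were set against the 31141 kept cells with 0 UMIs of MKI67 (MKI67-zero cells), and the 480 cells with 1 or 2 UMIs were used in neither class. Because the MKI67 count chose the members, MKI67 itself is a description and no test of it is reported. The cells came from the venous blood of 4 healthy Beagles with routine vaccinations and no treatment in the labels, a female of 5 years (dog 1), males of 7 years (dogs 2 and 3) and a male of 9 years (dog 4). Mononuclear cells were stained for TCRαβ, sorted as live single lymphocytes, frozen, and processed with droplet-based 5′ sequencing, giving 1 gene expression library and 1 V(D)J library per dog. The dog was the replicate, so n = 4 throughout, and each comparison was made between classes of cells of the same dog. Age and sex were not compared, since each combination apart from the males of 7 years occurred in 1 dog.

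Resting T cells in blood sit outside the cell cycle, in a quiescent state held by transcription factors such as those of the KLF and FOXO families and by signalling through the interleukin 7 receptor. A T cell that recognises antigen re-enters the cycle, copies its DNA in S phase with the MCM helicase and the replication polymerases, and separates the chromosomes in mitosis with kinesins and centromere proteins. MKI67 transcript builds up through S and G2 phase, its protein coats the chromosomes in mitosis, and both are low in quiescent cells. TOP2A (topoisomerase that untangles DNA), CLSPN (claspin, a checkpoint adaptor at the replication fork) and KIF15 (a spindle kinesin) served as the other markers of the dividing cells.

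The expression libraries of dogs 1 to 4 held 7428, 8873, 8402 and 8422 cell barcodes with 26904346, 35661623, 32637367 and 32773374 UMIs. After cells above 20000 UMIs or above 10% mitochondrial UMIs were left out, 7096, 8454, 8109 and 8250 cells were kept. The limit on UMIs took out 6, 5, 5 and 3 cells and the mitochondrial limit 326, 414, 288 and 169. Without the cell filter, 358 cells held at least 3 MKI67 UMIs, of which 288 were kept. Of all 33125 barcodes, 31909 were kept, so the filter took out a larger part of the MKI67-high cells. The members numbered 66, 106, 54 and 62. They made up 0.930% of the kept cells in dog 1 (exact 95% binomial interval 0.720 to 1.18%), 1.25% in dog 2 (1.03 to 1.51%), 0.666% in dog 3 (0.501 to 0.868%) and 0.752% in dog 4 (0.577 to 0.962%), a mean of 0.900 ± 0.260% (SD, n = 4). These intervals cover counting error only. Dog 2 had the highest share, and its interval did not overlap those of dogs 3 and 4. Of the barcodes, 586 occurred in more than 1 dog, 545 of them among kept cells. This touched 10 members, and no barcode was a member in 2 dogs.

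The members were the deeper cells. Their median was 9818, 9771, 9542 and 10014 UMIs in dogs 1 to 4, against 3584, 3892, 3766 and 3827 in the MKI67-zero cells, a ratio of 2.74, 2.51, 2.53 and 2.62. A deeper cell reaches 3 UMIs of any gene more easily, and a cell that has grown before division also holds more RNA, and the 2 cannot be told apart here. Shares of cells with a transcript are therefore given after each cell was thinned to 2000 UMIs unless they are called unthinned, and levels are given as CPM (UMI counts of a gene per 1000000 UMIs) of the cells of a class summed within a dog. The members' summed UMIs were 645639, 1109565, 560268 and 632457 in dogs 1 to 4.

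The label was checked against the markers by splitting the cells by their MKI67 count, with unthinned shares, so that the difference in depth enters them. TOP2A, CLSPN or KIF15 was detected in 153 of the 288 members (53.1%) and in 336 of the MKI67-zero cells (1.08%). TOP2A was detected in 30.2% of the members, CLSPN in 33.3%, KIF15 in 39.2% and the mitotic gene CENPF in 75.3%. The members were not uniform. Among the 54 cells with exactly 3 MKI67 UMIs, the lowest count taken in, TOP2A was found in 5.56%, CLSPN in 9.26%, KIF15 in 5.56% and CENPF in 40.7%. Just outside the threshold, in the 110 cells with 2 UMIs, the shares were 3.64%, 2.73%, 2.73% and 15.5%. In the 98 cells with 12 or more UMIs they were 57.1%, 57.1%, 69.4% and 96.9%. The median depth was 3762 UMIs at 0 MKI67 UMIs, 6224.5 at exactly 3 and 13754.5 at 12 or more. The summed transcripts of 47 replication genes had a median of 6.62 per 10000 UMIs at exactly 3 MKI67 UMIs, 11.1 at 6 to 11 and 43.0 at 12 or more, against 6.55 in the MKI67-zero cells. The 76 mitosis genes gave 6.46, 28.0 and 79.5, against 4.58. The cells at the threshold thus lay near the MKI67-zero cells in the medians of these lists, and those with many MKI67 UMIs far above them. In the single markers the cells at the threshold lay higher than the MKI67-zero cells. The latter showed TOP2A in 0.652%, CLSPN in 0.164%, KIF15 in 0.302% and CENPF in 0.353%.

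**Figure D1:**
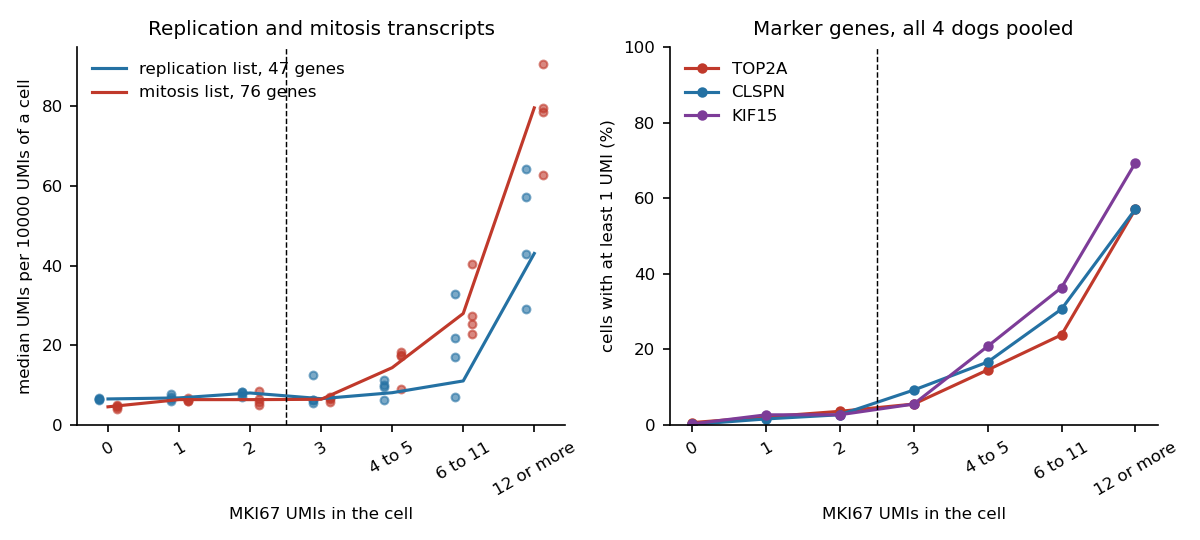
Cells grouped by their raw MKI67 UMI count, with the median replication and mitosis transcripts per 10000 UMIs of a cell on the left (lines for all dogs, points for each dog) and the unthinned percent of cells with TOP2A, CLSPN or KIF15 on the right. The dashed line is the threshold for members. On the left, cells with exactly 3 MKI67 UMIs lie close to those with 0 to 2. On the right, KIF15 is found in 0.302% of the cells with 0 MKI67 UMIs, 5.56% with exactly 3 and 69.4% with 12 or more.

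Among the members, transcripts of mitosis exceeded those of replication in 183 cells (63.5%), the reverse held in 92 (31.9%), and 13 were equal. The UMIs were summed over lists of unequal length, 76 mitosis and 47 replication genes. The split is therefore not a measure of cycle phase. Within each dog's members, MKI67 per 10000 UMIs followed the mitosis list per 10000 UMIs with Spearman's rho of 0.492, 0.578, 0.642 and 0.598, and the replication list with 0.0883, 0.111, 0.407 and 0.198. These are descriptions over the 66, 106, 54 and 62 members of the dogs, whose points share a library and differ in depth. The median member held 52 transcripts of both lists together, a number that 16 of the MKI67-zero cells also reached.

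Genes of the cell cycle are described without their test results, because they belong to the program that MKI67 marks. The MKI67 level was 1234, 976, 1112 and 1192 CPM in the members of dogs 1 to 4. TOP2A stood at 223, 139, 227 and 232 CPM in the members and 1.78, 2.58, 1.64 and 1.76 CPM in the MKI67-zero cells. CLSPN stood at 94.5, 85.6, 98.2 and 93.3 CPM and KIF15 at 115, 66.7, 94.6 and 93.3 CPM in the members. In every dog the members lay far above the MKI67-zero cells in these markers. The replication list, led by the helicase subunit MCM6, summed to 3743 ± 172 CPM in the members and 719 ± 22.1 CPM in the MKI67-zero cells, and each of its 47 genes was higher in all 4 dogs. The mitosis list, led by CENPF, summed to 5910 ± 659 against 528 ± 34.1 CPM, with 75 of 76 genes higher in all 4 dogs. Nucleotide synthesis enzymes summed to 3021 ± 143 against 1286 ± 67.8 CPM, with 15 of 23 higher and 2 lower in all 4 dogs. Thymidine kinase (TK1) was at 400.0 ± 69.2 against 12.7 ± 3.101 CPM and the ribonucleotide reductase subunit RRM2 at 341 ± 25.99 against 1.11 ± 0.384 CPM. Chromatin and tubulin genes summed to 7943 ± 389 against 2197 ± 117 CPM, with 12 of 13 higher, among them STMN1 (stathmin, which destabilises microtubules) at 1990.3 ± 192 against 263 ± 66.3 CPM.

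The regulators of the cycle went in both directions. Of 34 in the files, 21 were higher and 7 lower in all 4 dogs. The share of all genes that were higher or lower in all 4 dogs is not given. Such counts, for this list and the cell cycle lists above, are therefore not read against a background. Higher were MYBL2, a transcription factor of dividing cells, at 58.97 ± 3.11 against 0.2496 ± 0.0736 CPM, the S phase kinase CDK2 at 39.2 against 6.34 CPM, its partner CCNE2 at 40.5 against 2.47 CPM and CDK4 at 182 against 89.1 CPM. Other genes of the list were lower. CCND2 (cyclin D2) stood at 35.6, 41.5, 48.2 and 30.04 CPM in the members of the 4 dogs, against 139, 195, 201 and 192 CPM in the other class. MYC, which drives growth on activation, stood at 110.0, 79.3, 71.4 and 61.7 CPM in the members (dogs 1 to 4) and at 326, 294, 269.9 and 228 CPM in MKI67-zero cells. For both genes, every member sum lay below every MKI67-zero sum. Cyclin D3 (CCND3), the most abundant gene of the list, was at 256 against 272 CPM. The inhibitor CDKN1B was at 44.1 ± 9.95 against 102 ± 4.62 CPM and RBL2, a pocket protein of quiescent cells, at 100.1 ± 12.9 against 183 ± 9.29 CPM.

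Markers of other blood cells were read in the members before any other gene, since a sort or a doublet can bring them along. Counts of cells with these markers, here and in the next paragraph, are unthinned. Of 8 B and plasma cell genes, the sum was 17.0, 12.6, 8.92 and 12.6 CPM in the members of dogs 1 to 4 and 12.5, 9.17, 8.54 and 8.52 CPM in the MKI67-zero cells. CD79B, the most abundant, occurred in 11 members and MS4A1 in 7, while PAX5 and CD22 were at 0. Of 8 monocyte and dendritic cell genes, the sum was 12.4, 3.61, 21.4 and 6.32 CPM against 0.712, 0.516, 0.675 and 0.704 CPM. LYZ (lysozyme) carried it, with 25 UMIs in 14 members, and CSF1R, FCER1A, FCGR1A, FLT3, IL1B and SPI1 were at 0 in the members. CD79B, BLK and LYZ were called higher in the members (edgeR adjusted p under 0.05). They had only 28, 101 and 45 UMIs in all MKI67-zero cells, so the filter on low counts kept them through the members. These calls were therefore not set against the share of all genes called.

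S100A8, an alarmin of neutrophils and monocytes and the most abundant gene of the neutrophil list, was detected in 256 members (88.9%) and in 77.2% of the MKI67-zero cells (unthinned). The 4 neutrophil genes in the files summed to 2739.9, 3431, 2863 and 2784 CPM in the members of dogs 1 to 4 against 1332, 2338, 2406 and 2757 CPM, and CSF3R, CXCR2 and S100A12 were at 0. Of the NK cell genes, NCR1 and NCAM1 had 0 UMIs in the 288 members, which allows a share of up to 1.04% of cells with a UMI, against 390 of the MKI67-zero cells with an NCR1 UMI. The 6 thymocyte and progenitor genes were at 0 in the members, and of the 4 platelet and erythroid genes only ITGA2B was seen, with 2 UMIs. Depth, LYZ, CD79B and BLK thus moved with the members, although the call of BLK was lost with classes by TOP2A (at least 2 UMIs of TOP2A against 0, in place of MKI67, adjusted p = 0.321). S100A8 was higher with the dog as a block but not called without it (adjusted p = 0.0824) or against MKI67-zero cells between the UMI quartiles of the members (0.0652), and the neutrophil sum hardly differed between the classes in dog 4. Their part in the results below was not tested beyond the alternatives given with them.

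Beyond the cell cycle, the question was which kinds of T cells divide in the blood of healthy dogs and in what state. The summed counts of members and MKI67-zero cells of each dog were compared with edgeR's quasi-likelihood test with the dog as a block, over 10425 genes with Benjamini-Hochberg adjustment. Of these, 2191 were higher in the members (21.0%) and 2299 lower (22.1%) at an adjusted p under 0.05, and 5193 had an unadjusted p under 0.05. MKI67 and the genes of the cell cycle lists were among the genes tested and so enter these shares. With them left out before normalization, 10232 genes were tested, with 2082 higher and 2208 lower. The median log2 fold change of all tested genes was -0.07. A list of genes was read against this background by its count and median, with no test of the list itself. When the MKI67-zero cells were restricted to those between the lower and upper UMI quartile of the members of the same dog (the quartile-range class), 8435 genes were tested, with 1814 higher and 1677 lower genes, of which 1740 and 1595 were also called above. This class was still shallower than the members on average in each dog. In dogs 1 to 4 its 413, 442, 373 and 961 cells held 3085097, 3922641, 3256133 and 6945787 UMIs. The 66, 106, 54 and 62 members held 645639, 1109565, 560268 and 632457.

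**Figure D2:**
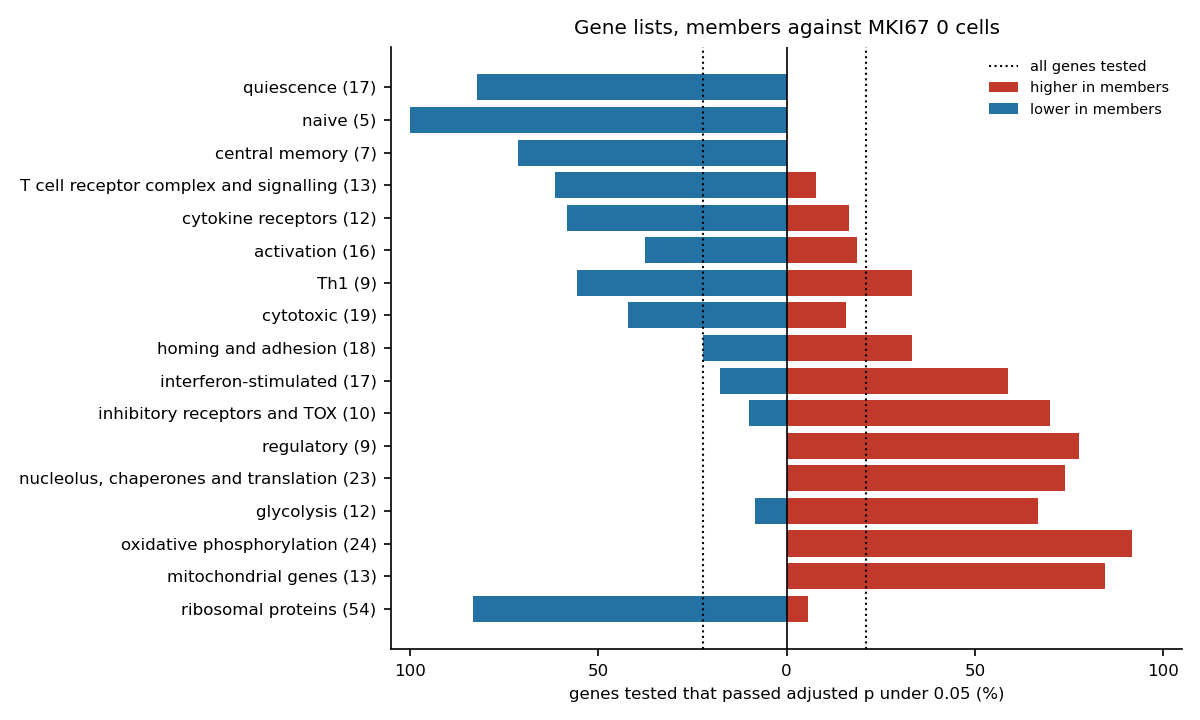
Percent of the tested genes of each list (their number in brackets) that were higher (right) or lower (left) in the members at an edgeR adjusted p under 0.05, with dotted lines at 21.0% and 22.1% for all genes. Genes called lower were 14 of 17 of the quiescence list and 5 of 5 of the naive list. Of the oxidative phosphorylation list 22 of 24 genes were called higher, and genes of the cytotoxic list were called in both directions.

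Transcripts of resting T cells were lower in the members. Of 17 quiescence genes tested, 14 were lower and none higher, with a median log2 fold change of -0.65 against -0.07 for all genes. IL7R (ENSCAFG00000018752), the receptor through which interleukin 7 keeps resting T cells alive, stood at 158, 207, 145 and 136 CPM in the members by dog, compared with 622, 951, 792 and 754 CPM in MKI67-zero cells. The highest member value lay below the lowest MKI67-zero value (log2 fold change -2.28, SE 0.09, adjusted p = 1.65e-18). After thinning to 2000 UMIs, an IL7R transcript was found in 25.1 ± 2.27% of the members and 62.6 ± 4.08% of the MKI67-zero cells. PIK3IP1, a brake on PI3 kinase, stood at 7.74, 3.61, 10.7 and 9.49 CPM in the members of dogs 1 to 4 and 46, 55.7, 82.4 and 44.6 CPM in their MKI67-zero cells (log2 fold change -2.98, SE 0.23, adjusted p = 7.05e-12), from 21 member UMIs in all. The glucose-uptake inhibitor TXNIP was at 109.9 ± 22.01 against 381 ± 49.2 CPM, the antiproliferative gene BTG2 at 169 ± 18.8 against 369.9 ± 39.6 CPM and TSC22D3 (GILZ) at 206 ± 29.04 against 678 ± 126 CPM, each lower in all 4 dogs.

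All 5 tested genes of naive cells were lower too, with a median log2 fold change of -1.83. CCR7, the chemokine receptor for entry into lymph nodes, stood at 57.3, 45.1, 12.5 and 23.7 CPM in the members of the 4 dogs, against 184, 146, 147 and 75.9 CPM in the other class (log2 fold change -1.96, SE 0.16, adjusted p = 3.48e-11). TCF7, the factor that keeps T cells able to self-renew, stood at 107, 83.8, 98.2 and 117 CPM in the members (dogs 1 to 4) and at 376, 319, 269 and 255 CPM in MKI67-zero cells (log2 fold change -1.62, SE 0.11, adjusted p = 3.97e-13). LEF1, its relative, stood at 113, 124, 58.9 and 71.2 CPM in the members by dog, compared with 618, 328, 259 and 178 CPM in MKI67-zero cells (log2 fold change -1.83, SE 0.13, adjusted p = 2.80e-12). In all 3 genes the members of every dog lay below the MKI67-zero cells of every dog. The chromatin organiser SATB1 fell by 2.14 on the log2 scale. Central memory genes gave 5 of 7 lower and none higher, among them LTB at 570.5 ± 107 against 1638 ± 312 CPM and ID3 at 24.1 ± 15.7 against 98.6 ± 21.5 CPM.

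Genes of regulatory T cells, which restrain other T cells, were higher in the members. Of 9 tested, 7 were higher and none lower, with a median log2 fold change of 0.96, and within the CD4 single-positive cells described further on 8 of 9 were higher with a median of 1.33 (5 of 9 without the dog block, and 4 of 7 with the quartile-range class). FOXP3 (ENSCAFG00000015934), the factor that defines regulatory T cells, stood at 34.1, 67.6, 46.4 and 66.4 CPM in the members of dogs 1 to 4 and 9.18, 13.8, 16.9 and 12.97 CPM in their MKI67-zero cells. Every member sum lay above every MKI67-zero sum (log2 fold change 2.04, SE 0.18, adjusted p = 9.67e-11). IKZF2 (Helios), a partner of FOXP3, stood at 91.4, 77.5, 99.95 and 90.1 CPM in the members of the 4 dogs, against 21.5, 27.5, 20.01 and 24.97 CPM in the other class (log2 fold change 1.89, SE 0.13, adjusted p = 1.56e-12). The inhibitory cytokine IL10 stood at 17.04, 17.1, 16.1 and 9.49 CPM in the members (dogs 1 to 4) and at 1.15, 1.396, 2.12 and 2.69 CPM in MKI67-zero cells (log2 fold change 3.09, SE 0.38, adjusted p = 9.18e-08). Dog 4 had the least IL10 in its members and the most in its MKI67-zero cells. CTLA4, which competes with CD28 for its ligands, stood at 221, 187, 146 and 189.7 CPM in the members by dog, compared with 94.1, 111, 104 and 128 CPM in MKI67-zero cells (log2 fold change 0.76, SE 0.10, adjusted p = 3.32e-07).

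TIGIT, another checkpoint receptor, stood at 17.04, 3.61, 16.1 and 17.4 CPM in the members of dogs 1 to 4 and 1.19, 2.28, 2.25 and 4.67 CPM in their MKI67-zero cells (log2 fold change 2.30, SE 0.42, adjusted p = 4.27e-05). Its level in the members of dog 2 lay below the MKI67-zero level of dog 4. IL2RA (CD25, the high-affinity chain for interleukin 2) stood at 57.3, 16.2, 5.35 and 12.6 CPM in the members of the 4 dogs, against 8.86, 12.9, 11.5 and 11.6 CPM in the other class. Its call (log2 fold change 0.96, SE 0.34, adjusted p = 0.0225) rested on dog 1 and the log2 fold change was 0.02 without that dog. Of the 7 calls, those of IL2RA and TNFRSF18 were lost without the dog block, with DESeq2, with the quartile-range class and with classes by TOP2A, and that of TIGIT with classes by TOP2A.

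After thinning to 2000 UMIs, a FOXP3 transcript was found in 7.68 ± 1.5% of the members and 2.23 ± 0.668% of the MKI67-zero cells (21.7 ± 3.12% and 3.66 ± 0.982% before thinning), a difference of 5.45 percentage points that was positive in 4 of 4 dogs. The exact two-sided sign-flip test over the 4 dogs gave p = 0.13, the smallest it can give with 4 dogs, so that no share of cells compared here could pass 0.05. Cells with at least 3 CD8A UMIs, which should lack FOXP3, showed it in 0.615% after thinning and 1.40% before, at a median of 3941 UMIs. IKZF2 was found in 16.3% of the thinned members against 3.71%, and CTLA4 in 24.9% against 15.7%. In the thinned cells with at least 3 CD8A UMIs, IKZF2 was found in 6.58% and CTLA4 in 5.02%. In all, 64 members held a FOXP3 UMI before thinning, and 34 of these carried CD4 alone, 25 neither coreceptor, 4 both and 1 CD8A alone.

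Of the inhibitory receptors, a list that shares CTLA4 and TIGIT with the regulatory one, 7 of 10 tested genes were higher and 1 lower, with a median log2 fold change of 1.0. PDCD1 (PD-1), which dampens T cell receptor signals, stood at 20.1, 36.1, 30.3 and 39.5 CPM in the members (dogs 1 to 4) and at 8.07, 13.1, 13.6 and 19.4 CPM in MKI67-zero cells. Its lowest member value lay just above the highest MKI67-zero value (log2 fold change 1.24, SE 0.19, adjusted p = 3.60e-06). HAVCR2 (TIM-3) was at 13.6 ± 8.11 against 3.94 ± 0.975 CPM and the related factor TOX2 at 27.8 ± 9.19 against 11.4 ± 3.06 CPM. LAG3 was at 6.55 against 2.48 CPM from 17 member UMIs (adjusted p = 0.0353), and its call was lost without the dog block (adjusted p = 0.0866), with DESeq2 (0.0710), with members from 5 MKI67 UMIs (0.0837), with cells of more than 1 β chain or both coreceptors left out (0.0739) and with classes by TOP2A (0.180). The call of TOX2 was lost with classes by TOP2A (log2 fold change 0.52, adjusted p = 0.365). The call of TOX was lost without the block and with members from 5 MKI67 UMIs. CD160, an HVEM receptor of cytotoxic cells, was the 1 lower (log2 fold change -0.76), which was not called without the block (adjusted p = 0.215), with DESeq2 (0.0949) or with members from 5 MKI67 UMIs (0.0760).

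**Figure D3:**
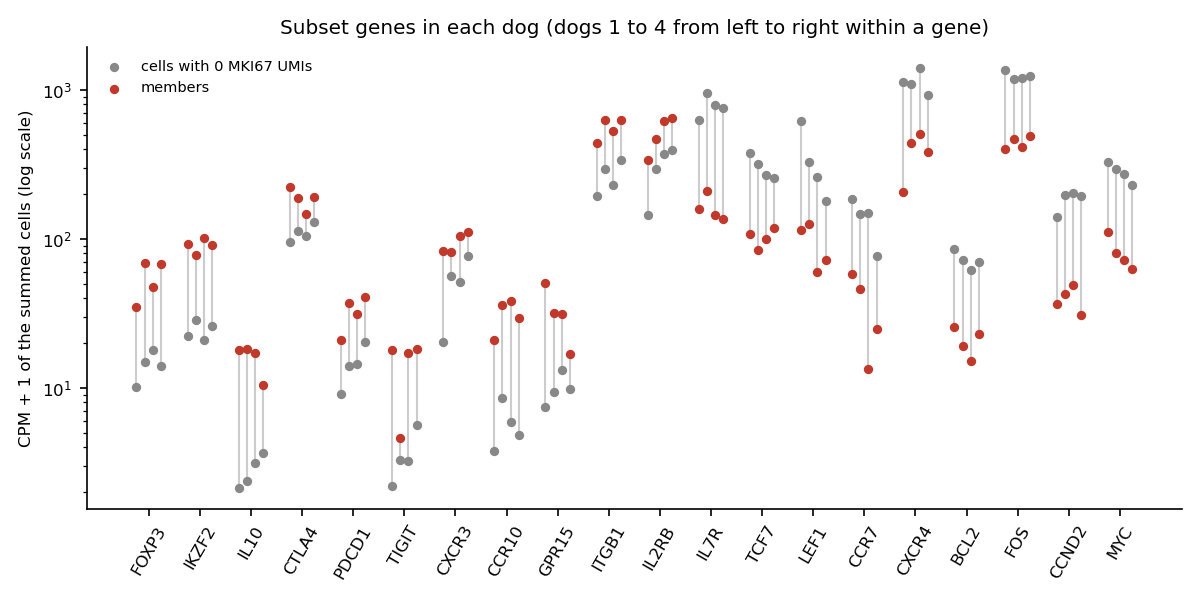
Level of 20 genes in CPM, with 1 added, on a log axis. Each line joins the members (red) and the MKI67-zero cells (grey) of a dog. FOXP3, IKZF2, PDCD1 and CCR10 lie higher in the members of all 4 dogs, and IL7R, TCF7, CCR7 and BCL2 lower.

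Genes of T helper programs did not move as blocks. Of 9 Th1 genes, 3 were higher and 5 lower, and 1 and 3 without the dog block. CXCR3, a receptor that leads T cells to inflamed tissue, stood at 82.1, 81.1, 104 and 111 CPM in the members by dog, compared with 19.3, 55.2, 50.4 and 75.6 CPM in MKI67-zero cells (log2 fold change 0.95, SE 0.16, adjusted p = 1.20e-05). The MKI67-zero cells of dog 4 came close to the members of dogs 1 and 2, and the adjusted p was 0.0594 without the dog block. IFNG (interferon gamma) stood at 9.29, 11.7, 35.7 and 34.8 CPM in the members of dogs 1 to 4 and 5.46, 6.83, 4.63 and 17.4 CPM in their MKI67-zero cells (log2 fold change 1.38). The classes overlapped, and the adjusted p was 0.0760 without the block. Among the lower genes were IL18R1, a receptor chain for interleukin 18, at 40.9 ± 13.1 against 91.7 ± 19.8 CPM and STAT4, which relays interleukin 12, at 165 ± 20.9 against 272 ± 40.3 CPM. The call of IL12RB2, a receptor chain for interleukin 12, was lost without the block (adjusted p = 0.0629). The Th1 master factor TBX21 was at 45.8 against 50.3 CPM (adjusted p = 0.667) and the Th2 factor GATA3 at 119 against 113 CPM (adjusted p = 0.57).

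The smaller lists gave few calls and are too short to be read against the 21.0% and 22.1% of all genes. Of 4 Th2 genes, CCR4 was higher and LGALS3 lower, a call that was lost without the dog block (adjusted p = 0.292) and turned in direction with members from 2 MKI67 UMIs. Of 5 follicular helper genes 3 were higher with ICOS and MAF among them. The call of MAF was lost with DESeq2 (adjusted p = 0.0660) and with the quartile-range class (0.173). Of 4 innate-like genes, CXCR6 was higher, and ZBTB16 (PLZF, the factor of innate-like T cells) at 2.34 ± 1.601 against 15.5 ± 4.04 CPM and the activating receptor NCR3 were lower. The calls of CXCR6 (0.33, adjusted p = 0.575) and ZBTB16 (-1.09, 0.0893) were lost with classes by TOP2A. Of 6 MHC class II genes, DLA-DMB was higher and DLA-DQA1 lower, neither of which was called without the block, and CIITA, which switches the class II genes on, was lower at 17.8 ± 3.98 against 39.03 ± 7.201 CPM.

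Receptors for homing to tissue were higher in part, with 6 of 18 genes higher, 4 lower (2 lower without the dog block) and a median log2 fold change of 0.18. Of all genes, 21.0% were higher and 22.1% lower, so the part that was lower was near that of all genes. CCR10, which guides lymphocytes to skin and mucosa, stood at 20.1, 35.1, 37.5 and 28.5 CPM in the members of the 4 dogs, against 2.81, 7.62, 4.95 and 3.84 CPM in the other class (log2 fold change 2.64, SE 0.25, adjusted p = 5.56e-10). CCR4, of skin-homing and regulatory T cells, stood at 24.8, 58.6, 24.99 and 28.5 CPM in the members (dogs 1 to 4) and at 11.3, 19.2, 14.04 and 13.7 CPM in MKI67-zero cells (log2 fold change 1.26, SE 0.19, adjusted p = 2.71e-06). The integrin chain ITGB1 stood at 441, 624, 527 and 628 CPM in the members by dog, compared with 193, 294, 229.7 and 339 CPM in MKI67-zero cells (log2 fold change 1.07, SE 0.07, adjusted p = 6.41e-13). For these 3 genes the members lay above the MKI67-zero cells in every dog and the classes did not overlap. The gut receptor GPR15 was at 31.6 ± 13.8 against 8.95 ± 2.37 CPM, the sphingosine-1-phosphate receptor S1PR4 at 64.6 ± 15.04 against 26.5 ± 2.58 CPM and CXCR6 at 32.7 ± 8.28 against 13.6 ± 3.7 CPM. CXCR4, which retains cells in the bone marrow, went the other way, at 204, 438, 505 and 384 CPM in the members of dogs 1 to 4 and 1130.4, 1099.5, 1399 and 919 CPM in their MKI67-zero cells (log2 fold change -1.60, SE 0.12, adjusted p = 3.68e-12).

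Activation genes were called in both directions, with 3 of 16 higher, near the 21.0% of all genes, and 6 lower, against 22.1% of all genes. ICOS, a costimulatory receptor of activated T cells, was at 177 ± 37.5 against 109 ± 24.3 CPM and IRF4, induced in proportion to receptor signal, at 22.6 ± 5.28 against 8.06 ± 1.795 CPM, both higher. The immediate early gene FOS was at 439.9 ± 42.5 against 1244 ± 77.5 CPM and CD40LG at 23.98 ± 8.51 against 71.5 ± 5.27 CPM, both lower, and CD69 and NR4A1 fell by 0.48 and 0.93 on the log2 scale. Of 12 cytokine receptor genes, 2 were higher and 7 lower. IL2RB, the signalling chain for interleukins 2 and 15, stood at 339, 469.6, 616 and 645 CPM in the members of the 4 dogs, against 144, 295, 373 and 393 CPM in the other class (log2 fold change 0.80, SE 0.08, adjusted p = 1.78e-09). IL4R was at 17.5 ± 4.92 against 62.1 ± 15.7 CPM and IL21R fell by 1.54 on the log2 scale. In the T cell receptor complex and its signalling, 1 of 13 was higher and 8 lower, with the phosphatase PTPRC (CD45) at 1213 ± 37.8 against 1794 ± 79.3 CPM. CD3D, the 1 higher, was at 509 ± 25.7 against 436 ± 38.1 CPM, and its call was lost without the block (adjusted p = 0.0513), without a filter on low counts (0.156), with members from 5 MKI67 UMIs (0.0566) and with cells of more than 1 β chain or both coreceptors left out (0.0598), and its direction turned with classes by TOP2A.

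Transcripts of energy metabolism were higher in the members. Of 24 nuclear genes of oxidative phosphorylation, 22 were higher and none lower, with a median log2 fold change of 0.91. COX5B, a subunit of cytochrome c oxidase, stood at 874, 901, 908 and 869.6 CPM in the members (dogs 1 to 4) and at 377, 386, 382 and 387 CPM in MKI67-zero cells (log2 fold change 1.20, SE 0.07, adjusted p = 1.00e-14), so that the members of each dog had more than any MKI67-zero sum. Of the 13 genes of the mitochondrial genome, 11 were higher, and their sum was 36652 ± 2072 against 21789 ± 3139 CPM. The median mitochondrial share per cell was 3.47, 3.59, 3.87 and 3.17% in the members and 2.17, 2.16, 2.38 and 1.62% in the MKI67-zero cells. This share also entered the cell filter, which left out cells above 10% and took out a larger part of the MKI67-high cells than of all cells. Of 12 glycolysis genes, 8 were higher and 1 lower, with a median of 0.54. GAPDH stood at 439.9, 347, 375 and 349 CPM in the members by dog, compared with 93.2, 116, 115 and 156 CPM in MKI67-zero cells (log2 fold change 1.66, SE 0.10, adjusted p = 6.75e-14), and the 1 lower was the aldolase ALDOC at 32.1 ± 9.27 against 84.3 ± 23.1 CPM.

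Ribosomal protein genes made up a smaller part of the transcripts. They summed to 150117 ± 6110 CPM in the members and 217841 ± 15849 CPM in the MKI67-zero cells, and 45 of 54 were lower and 3 higher, with a median log2 fold change of -0.55. In CPM a class with more of other transcripts has less of these, so the value is a share of the RNA and not an amount per cell. Of the genes of the nucleolus, chaperones and translation, 17 of 23 were higher and none lower, among them RAN, the GTPase of nuclear transport, at 161 ± 45.7 against 40 ± 10.2 CPM. Of 17 interferon-stimulated genes, 10 were higher and 3 lower, and 6 and 2 without the dog block. ISG15, a ubiquitin-like protein, stood at 12.4, 69.4, 16.1 and 47.4 CPM in the members of dogs 1 to 4 and 5.696, 12.4, 2.83 and 6.85 CPM in their MKI67-zero cells (log2 fold change 2.36, SE 0.24, adjusted p = 3.43e-09), with the largest difference in CPM in dog 2 and the smallest in dog 1. With classes by TOP2A its value was 0.48 and not called (adjusted p = 0.509). ISG20, an RNA exonuclease, was at 379 ± 48.4 against 147 ± 51.9 CPM.

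Of 12 survival genes, 3 were higher and 3 lower, near the 21.0% and 22.1% of all genes, with a median log2 fold change of 0.06. BCL2, which blocks the mitochondrial death pathway and depends on interleukin 7 in resting cells, stood at 24.8, 18.03, 14.3 and 22.1 CPM in the members of the 4 dogs, against 83.9, 71.2, 60.6 and 69.2 CPM in the other class (log2 fold change -1.87, SE 0.16, adjusted p = 7.55e-11). The members of every dog lay below all MKI67-zero sums. The death effectors BAX and BAK1 had log2 fold changes of 0.69 and 0.90, and the call of BAK1 was lost with classes by TOP2A (0.16, adjusted p = 0.716). Outside the lists, the largest rises were again in genes of dividing cells, led by SHCBP1 at 38.3 ± 5.86 against 0.114 ± 0.0903 CPM, CENPT at 25.7 ± 4.02 against 0.0835 ± 0.0409 CPM and the linker histone H1-5 at 649 ± 263 against 3.31 ± 0.8204 CPM. The filter on low counts kept SHCBP1 and CENPT through the members only. Genes outside the lists were ranked by fold change in these same data, so their rank is a description. H1-5 varied between dogs, with 692, 699, 917 and 288 CPM in the members of dogs 1 to 4. Among the lowest genes outside the lists, CD52, a surface glycoprotein of lymphocytes, stood at 55.8, 11.7, 32.1 and 9.49 CPM in the members (dogs 1 to 4) and at 248, 183, 211 and 203 CPM in MKI67-zero cells (log2 fold change -3.08, SE 0.18, adjusted p = 1.52e-14), SPINT2, a protease inhibitor, at 8.74 ± 1.74 against 79.1 ± 3.35 CPM, and ZMAT1 at 0.897 against 22.5 CPM from 3 member UMIs.

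The members were then split by transcripts of CD4 and CD8A, the coreceptors of helper and killer T cells, although part of them showed neither. A cell was CD4 single positive (CD4 sp) with a UMI of CD4 and none of CD8A, CD8A sp in the reverse case, dn with neither and dp with both. In the members of dogs 1 to 4, 54.5, 44.3, 35.2 and 32.3% were CD4 sp, against 51.4, 43.0, 33.4 and 39.2% of the MKI67-zero cells. The mean difference was -0.17 percentage points with an SD of 4.57 (exact sign-flip p = 1.0). CD8A sp cells were 15.2, 20.8, 29.6 and 38.7% of the members against 9.70, 16.8, 28.2 and 24.6%, a difference of 6.25 points with an SD of 5.49, higher in 4 of 4 dogs (exact p = 0.13). Cells without either transcript were 28.8, 27.4, 33.3 and 25.8% against 37.7, 37.8, 35.3 and 34.1% (difference -7.42 points, SD 3.72, exact p = 0.13).

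These raw shares depend on depth, because a deeper cell is more often seen with a coreceptor. After thinning to 2000 UMIs, CD4 sp cells made up 21.4% of the members and 30.9% of the MKI67-zero cells, lower in 4 of 4 dogs (difference -9.48 points, SD 6.90). CD8A sp cells made up 25.8% against 19.5%, higher in 4 of 4 dogs (difference 6.31 points, SD 4.40). Of the thinned single-positive cells, 55.3% of the members and 38.2% of the MKI67-zero cells carried CD8A (difference 17.0 points, SD 11.7). Unthinned, this difference was 6.41 points with dog 3 at -0.0087, and it was 1.45 with members from 2 MKI67 UMIs and 2.36 when a positive cell needed 2 UMIs. The mean difference for CD8A sp cells was positive with and without thinning to 2000 UMIs, and that for dn cells changed sign. That for CD4 sp cells was negative in both, but its direction depended on the settings, with 7.98 points when a positive cell needed 2 UMIs, higher in 4 of 4 dogs, and 1.34 with members from 2 MKI67 UMIs (both unthinned). The CD8A sp difference depended on the settings. It was 5.71 points after thinning to 3000 UMIs, with dog 3 at -0.23 (exact p = 0.25). Unthinned, it was 1.77 points with members from 2 MKI67 UMIs, with dog 3 at -3.84 (exact p = 0.5), and 11.04 points with members from 5 MKI67 UMIs, higher in 4 of 4 dogs. The thinned dn share was 52.6% against 48.7%. As a background, a CD4 UMI was seen in 4.12% of the thinned cells with at least 3 CD8A UMIs, and a CD8A UMI in 3.02% of those with at least 3 CD4 UMIs. Dp cells were 1.52, 7.55, 1.85 and 3.23% of the members, with dog 2 the highest.

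Set the other way round and unthinned, members made up 0.984, 1.30, 0.700 and 0.617% of the CD4 sp cells of dogs 1 to 4 and 1.45, 1.54, 0.702 and 1.18% of the CD8A sp cells, that is 0.899 ± 0.308% and 1.22 ± 0.376%. The shares of the dogs overlapped between these classes. CD4 itself stood at 163, 145, 99.95 and 114 CPM in the members by dog, compared with 295, 252, 209 and 230.2 CPM in MKI67-zero cells (log2 fold change -0.93, SE 0.09, adjusted p = 1.19e-09), and CD8A at 268, 304, 399.8 and 489 CPM in the members of dogs 1 to 4 and 154, 250.2, 469 and 418 CPM in their MKI67-zero cells (log2 fold change 0.24, adjusted p = 0.0556).

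The same comparison was then made within CD4 sp cells (members 36, 47, 19 and 20) and within CD8A sp cells (members 10, 22, 16 and 24), to see which changes belonged to both kinds of T cells. Of 9520 genes tested in CD4 sp cells, 1531 were higher (16.1%) and 1589 lower (16.7%), with a median log2 fold change of -0.10. Of 7925 tested in CD8A sp cells, 1192 were higher (15.0%) and 1122 lower (14.2%), with a median of -0.09. Quiescence genes were lower in 14 of 17 and 11 of 16, all 5 naive genes were lower in both, and oxidative phosphorylation genes were higher in 21 of 24 in CD4 sp cells and 19 in CD8A sp cells. The call of CCR7 in CD8A sp cells was lost without the dog block (log2 fold change -1.89, adjusted p = 0.0906). IL7R changed by -2.28 in CD4 sp and -1.98 in CD8A sp cells on the log2 scale.

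For the cytotoxic genes the difference between the coreceptor classes was tested gene by gene, as given further on, and not for the list. In CD4 sp cells 9 of 16 tested were higher and 1 lower (median log2 fold change 0.82), in CD8A sp cells 14 of 19 were lower and none higher (median -1.11), and over all cells 3 of 19 were higher and 8 lower. These counts depended on the settings. Without the dog block, 2 were higher and none lower in CD4 sp cells, 12 lower in CD8A sp cells, and 1 higher and 1 lower over all cells. With the quartile-range class, 5 of 13 tested were higher and 2 lower in CD4 sp cells, 1 of 16 higher and 4 lower in CD8A sp cells, and 5 of 19 higher and 4 lower over all cells. In CD8A sp cells the calls lost with that class included those of GZMK (log2 fold change -0.14, adjusted p = 0.796), PRF1 (perforin, -0.06, 0.901) and GZMA (-0.60, 0.197). GZMB (granzyme B, the protease that killer cells inject) stood in CD4 sp cells at 2.99, 51.02, 16 and 50.5 CPM in the members of the 4 dogs, against 2.72, 7.22, 10.9 and 8.97 CPM in the other class (log2 fold change 2.06, SE 0.37, adjusted p = 3.76e-07). In CD8A sp cells GZMB stood at 531, 1140.5, 1084 and 881 CPM in the members (dogs 1 to 4) and at 1305, 1050.2, 1462 and 1777 CPM in MKI67-zero cells (log2 fold change -0.65, SE 0.14, adjusted p = 4.83e-04). The CD8A sp members lay below the MKI67-zero cells in dogs 1, 3 and 4 and slightly above them in dog 2. With the quartile-range class the CD8A sp value was 0.49 (adjusted p = 0.013), so its direction turned, as did those of CCL4, IL2RB and TBX21. That class held more cells with over 1 β chain than the members, as given with the receptors. The chemokine CCL5 in CD4 sp cells stood at 2.99, 551, 0 and 101 CPM in the members by dog, compared with 29.97, 37.5, 34.8 and 79.05 CPM in MKI67-zero cells, and its log2 fold change of 1.64 became -0.73 without dog 2.

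The difference between the changes in CD8A sp and CD4 sp cells was itself tested, over 8549 genes. It was higher in CD8A sp cells for 3 genes (0.0351%) and lower for 28 (0.328%), with 828 genes at an unadjusted p under 0.05. None of these 31 calls was made without the dog block or with the quartile-range class, whose 1 call was another gene. In CD4 sp cells IL2RB stood at 219, 542, 448 and 643 CPM in the members and 70.2, 166, 167 and 229 CPM in the MKI67-zero cells, higher in the members of each dog. In CD8A sp cells it stood at 670.2, 614, 812 and 728 CPM and 607, 778, 831 and 864 CPM, and the classes overlapped. The log2 fold changes were 1.53 and -0.19, a difference of -1.79 (SE 0.24, adjusted p = 0.00172, 0.255 without the block and 0.276 with the quartile-range class). The other listed genes were GZMB (difference -2.84, adjusted p = 0.0466), the chemokine CCL4 (-2.94, 0.0204), the cystatin CST7 (-1.66, 0.0327) and the survival gene BCL2A1 (-1.23, 0.0137). IKZF2 rose in CD4 sp members (2.30) and had 0.25 in CD8A sp members (adjusted p = 0.594), and the difference of -2.04 had an adjusted p of 0.0652.

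**Figure D4:**
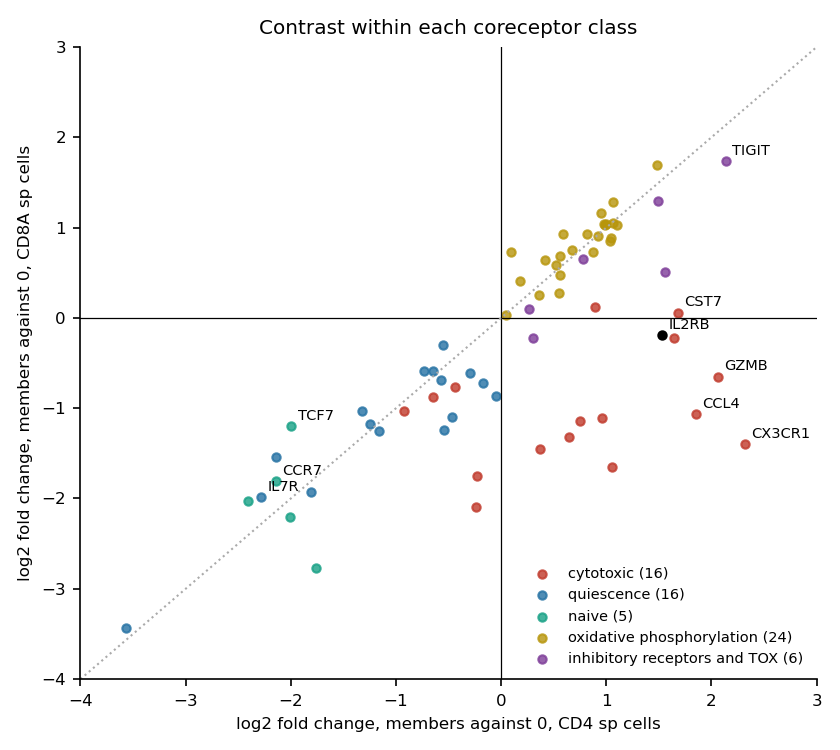
Log2 fold change of members against MKI67-zero cells within CD4 sp cells (horizontal) and within CD8A sp cells (vertical), with a point for each gene of 5 lists and for IL2RB in black, and a dotted line where both are equal. IL7R, TCF7 and CCR7 lie below 0 in both, and GZMB, CCL4 and IL2RB lie above 0 in CD4 sp cells and below 0 in CD8A sp cells.

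In single cells, GZMB transcript was seen in 58 of 72 CD8A sp members (80.6%) and 19 of 122 CD4 sp members (15.6%), against 60.9% and 2.06% of the MKI67-zero cells of those kinds. FOXP3 was seen in 34 of 122 CD4 sp members (27.9%) and 1 of 72 CD8A sp members (1.39%). Over all members, 64 held FOXP3, 102 held GZMB, 11 of these held both and 133 held neither. These unthinned shares carry the difference in depth. Among the thinned cells GZMB was found in 18.6% of the members and 12.9% of the MKI67-zero cells, and GZMK in 17.2% and 16.6%.

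The V(D)J libraries added the receptors of the same cells. A cell was counted as a clone mate of another of the same dog when both shared the V gene, the J gene and the junction bases of a β chain (TRB), and a clone was expanded with at least 2 kept cells. A β chain was recovered in 92.4, 84.9, 79.6 and 75.8% of the members of dogs 1 to 4, against 76.2, 71.5, 77.5 and 75.4% of the MKI67-zero cells, in all in 241 members. Both chains were recovered in 76.4% of the members against 57.7% (means of the dogs), a difference of 18.7 points that was positive in 4 of 4 dogs (exact p = 0.13) and came to 8.60 points with the quartile-range class. Members with a β chain held more than 1 β chain in 6.56, 13.3, 4.65 and 4.26%, against 3.84, 4.59, 3.03 and 3.22%. More than 1 α chain was found in 10.4% against 7.03%. The members also held more receptor transcript, with a median of 14, 16, 18 and 21 UMIs per β chain against 7, 8, 9 and 9. The sort gated out doublets of cells, but droplets that held 2 cells were neither called nor removed here, so that members may include them. Against the quartile-range class the order was the reverse. Its cells held more than 1 β chain more often than the members, with a mean difference of -17.5 points. They also held more than 1 α chain more often, with -8.50 points, and were dp more often, with -7.79 points. Leaving out cells with more than 1 β chain and dp cells gave 2014 higher and 2482 lower genes, of which 1992 and 2230 were also called above.

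Members were scattered over many clones. Their β chains fell into 254 clones, of which 173 had 1 cell and 81 were expanded, where 20 members with more than 1 β chain counted in each of their clones. At least 2 members were held by 6 clones, with at most 3 in 1 clone and 11 different cells in all. In 76 of the 81 expanded clones, other cells of the clone had 0 MKI67 UMIs. Of all kept cells, 31141 of 31909 had 0, so most expanded clones would hold such a cell. The spread of an equal number of other cells over clones was not compared. Members with a β chain belonged to an expanded clone in 26.2, 33.3, 37.2 and 46.8%, against 13.2, 36.5, 46.2 and 58.5% of the MKI67-zero cells. The members were higher in dog 1 and lower in the other dogs (mean difference -2.73 points, SD 11.1, exact p = 0.75). The size of this difference depended on the settings, with -11.0 points for clones of at least 3 cells, -8.69 for clones that shared both chains and -9.92 with the quartile-range class (exact p = 0.25 each). Among CD8A sp cells the shares were 70.0, 38.9, 41.7 and 66.7% against 55.4, 58.0, 74.0 and 81.5% (exact p = 0.25).

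The share of members by clone size was read within each dog and not tested, since the dogs differ in their share of members and supply different parts of each size class. In clones of 1 cell, members made up 0.960, 1.56, 0.796 and 0.963% of the cells of dogs 1 to 4. In clones of 2 to 9 cells the shares were 2.32, 1.73, 1.06 and 1.04%, above those in clones of 1 cell in each dog, with exact intervals that overlapped. In clones of 10 or more cells they were 1.75, 0.648, 0.180 and 0.211%, from 3, 5, 3 and 4 members. They lay below those in clones of 1 cell in dogs 2, 3 and 4 and above in dog 1, which had 171 such cells. Of 173 clones of 10 or more cells, 15 held a member.

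The 6 clones with more than 1 member, and the largest clone with a member in dogs 1, 3 and 4, are printed by their β chain junctions, because the junction is the part of the receptor that identifies a clone. Each runs 5′ to 3′ from the codon of the conserved cysteine, and capitals mark the bases that the deposited alignments placed between the V and the J gene.
dog 2 TRBV4-3 TRBJ1-6: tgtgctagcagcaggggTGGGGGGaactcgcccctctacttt
dog 2 TRBV4-4 TRBJ1-6: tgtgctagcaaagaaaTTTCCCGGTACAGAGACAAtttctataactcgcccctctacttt
dog 4 TRBV3-2 TRBJ2-5: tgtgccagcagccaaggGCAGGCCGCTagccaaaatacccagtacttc
dog 1 TRBV18 TRBJ2-1: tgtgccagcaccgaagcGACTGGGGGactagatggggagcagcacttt
dog 2 TRBV10 TRBJ1-2: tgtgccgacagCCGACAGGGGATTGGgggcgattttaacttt
dog 4 TRBV16 TRBJ1-1: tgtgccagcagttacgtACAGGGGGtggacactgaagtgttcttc
dog 1 TRBV10 TRBJ2-3: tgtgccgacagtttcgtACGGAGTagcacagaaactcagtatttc
dog 3 TRBV28 TRBJ1-6: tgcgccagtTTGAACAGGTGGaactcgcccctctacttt
dog 4 TRBV3-1 TRBJ2-1: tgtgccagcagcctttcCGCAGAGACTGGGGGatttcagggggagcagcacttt

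The TRBV4-3 TRBJ1-6 clone of dog 2 had 69 cells, 66 of them CD8A sp, and held the most members, with 7, 21 and 24 MKI67 UMIs. Its α chain was TRAV34 with TRAJ39 in all 54 cells with an α chain. The TRBV4-4 TRBJ1-6 clone of the same dog had 17 cells, all CD8A sp, with members of 21 and 24 MKI67 UMIs and the same TRAV34 and TRAJ39 pair in 16 of 16 cells. These were largely the same cells, since 15 of the 17 also carried the TRBV4-3 junction, both members among them. The TRBV3-2 clone of dog 4 had 8 cells, all CD8A sp, and the TRBV18 clone of dog 1 had 3, also CD8A sp. The remaining pair, TRBV10 TRBJ1-2 in dog 2 and TRBV16 in dog 4, were clones of 3 and 2 dn cells, and the latter was made of members alone, with 7 and 12 MKI67 UMIs. The largest clones with a member had 14, 125 and 130 cells in dogs 1, 3 and 4, each with 1 member, against 69 in dog 2.

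Of 30 TRAV and 24 TRBV genes compared, none could pass 0.05 with 4 dogs. TRAV9-8 made up 11.5 ± 5.31% of the α chains of the members and 6.06 ± 1.43% of those of the MKI67-zero cells, higher in 4 of 4 dogs. TRAV43-1, the most used in MKI67-zero cells, made up 10.2 ± 0.909% against 15.1 ± 1.57%, lower in 4 of 4 dogs, and TRAV43-4 6.24% against 10.8%, also lower in 4 of 4 (each exact p = 0.13 before adjustment). TRBV5-2 made up 3.77% of the β chains against 7.73%, lower in 4 of 4 dogs, and TRBV16 16.5% against 16.7%. The chain TRAV9-11 with TRAJ28, which resembles the invariant chain of MAIT cells, was carried by 5 of 243 members with an α chain, that is 0, 2.20, 4.88 and 1.96% of those of dogs 1 to 4, against 3.95, 3.88, 4.86 and 1.97% of the MKI67-zero cells. The 0 of 60 in dog 1 had an exact 95% upper limit of 5.96%, and the difference between the classes was not tested for this chain. TRAV24 was carried by 16 of the 243 members, that is 1.67, 9.89, 7.32 and 5.88% by dog. In the MKI67-zero cells its shares were 4.68, 5.00, 3.42 and 4.93%. The median β junction was 15 amino acids in the members of every dog and 14, 14, 15 and 15 in the MKI67-zero cells.

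**Figure D5:**
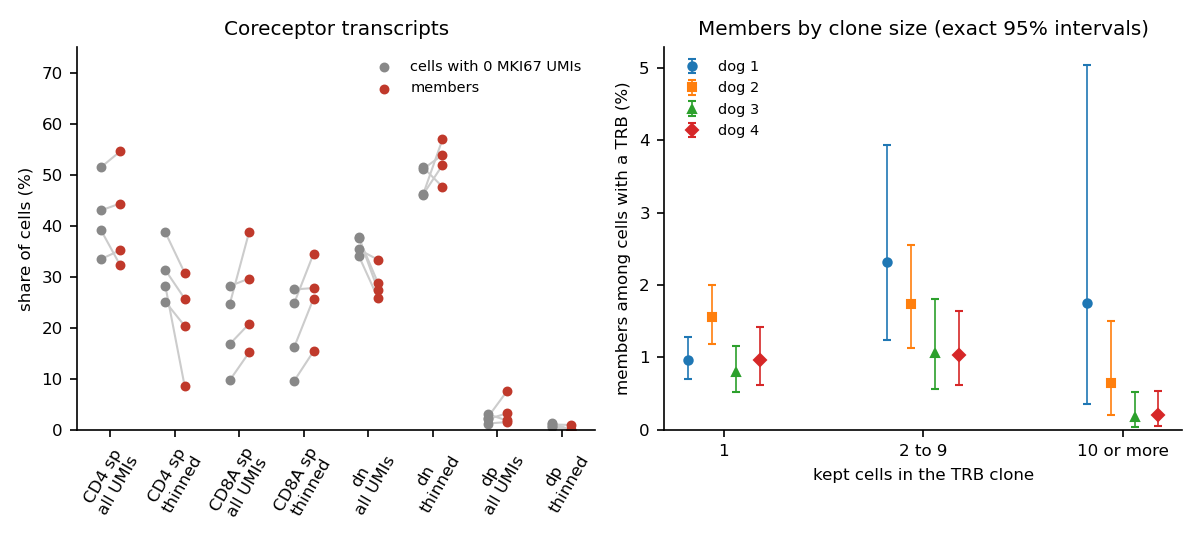
Left, percent of members (red) and MKI67-zero cells (grey) in each coreceptor class, with all UMIs and after thinning to 2000 UMIs, with lines joining the classes of a dog. Right, percent of members among cells with a β chain by clone size, with exact 95% intervals for each dog. CD8A sp cells were more frequent among the members of all 4 dogs, and the share of members in clones of 10 or more cells was lowest in dogs 3 and 4, at 0.180% and 0.211%.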

How the data were processed

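The authors aligned 5′ single-cell reads to CanFam 3.1 with Cell Ranger 5.0.1 and deposited UMI counts for each gene in each cell barcode, without normalization, and lists of productive receptor rearrangements (47928 in all) with UMI counts per chain. The matrices hold 20257 genes, of which 4453 are named by identifier only. The deposited gene list of dog 1 has 27980 lines and could not be joined to its matrix, so the list of dog 2 was used for all dogs. As a check, the gene totals of dog 1 (log scale) had correlations of 0.991, 0.990 and 0.989 with dogs 2, 3 and 4.

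A cell was kept if it held 500 to 20000 UMIs and if the 13 mitochondrial genes took no more than 10% of them. Doublets were not called. Members (at least 3 MKI67 UMIs) and MKI67-zero cells were summed per dog. The sums were compared with edgeR 4.0.16 in R 4.3.3 (quasi-likelihood test, TMM, dog as a block, Benjamini-Hochberg adjustment over all genes tested), over all cells, within CD4 sp and CD8A sp cells, and for the difference between these. The fits were also run on simulated data, for which no result is given here. The dog paired the sums by design. Deviations from the class means correlated between the classes of the same dog at 0.386, 0.382, 0.480 and 0.330 over 5583 genes. Shares were compared over 4 dogs with an exact two-sided sign-flip test in Python 3.11.15 (scipy 1.17.1), and binomial intervals were exact (Clopper-Pearson, 95%). For thinned shares each cell was drawn down to 2000 UMIs, which left out 1, 1, 0 and 4 members and 1010, 1306, 1104 and 1267 MKI67-zero cells of dogs 1 to 4.

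Named are the markers, genes of the lists, and outside the lists the 15 highest and 15 lowest by log2 fold change that passed the test with at least 20 CPM in the higher class and moved alike in 4 dogs. Of these a few are described, and some genes are not reported here. The members and lists were chosen with earlier results of these data known. Alternatives were DESeq2 1.42.0, its size factors, no filter on low counts, no dog block, other MKI67 thresholds, classes by TOP2A, MKI67-zero cells of the quartile-range class, leaving out cells with more than 1 TRB or both coreceptors, shared barcodes, the cell cycle lists or each dog in turn. Genome positions were not analysed here.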

Additional observations from a re-analysis of the deposited data

Results flagged for a closer look

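Of 62 values tested for a dog lying apart from the others, 2 were outlying, and chance gives about 1 in 20. The share of members with more than 1 α chain, of those with an α chain, was 12.1% in dog 2 against 9.76 to 10.0% in the other dogs. The log2 ratio of the summed NK cell genes (members against MKI67-zero cells, 1 CPM added) was -0.62 in dog 1 against -2.54 to -2.24 in the other dogs, and rested on 1 UMI of KLRF1 in the members of dog 1.

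Of the genes named, 5 differed between the contrast in CD8A sp cells and that in CD4 sp cells by the edgeR test of the difference. The difference in log2 fold change was -2.84 for GZMB, -2.94 for CCL4, -1.66 for CST7, -1.79 for IL2RB and -1.23 for BCL2A1. In the CD4 sp members the log2 fold changes of these genes were 2.06, 1.86, 1.68, 1.53 and 0.06, and in the CD8A sp members -0.65, -1.06, 0.06, -0.19 and -1.15. None of the 5 was called without the dog block or with the quartile-range class. The smallest classes behind these values were the 10 CD8A sp members of dog 1 and the 19 CD4 sp members of dog 3.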

How the results depend on the processing

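The counts of genes over all cells stayed within 1.5 times of 2191 higher and 2299 lower under every alternative run except for classes made by TOP2A, with 1425 higher. Restricting the comparison to the quartile-range class gave 930 lower genes in CD4 sp cells and 758 higher and 726 lower genes in CD8A sp cells. Within both coreceptor classes its cells were still shallower than the members on average in each dog. Without the dog as a block, 2000 genes were higher and 1965 lower over all cells, 1373 and 1317 in CD4 sp cells, and 1185 and 1061 in CD8A sp cells. The difference between the coreceptor classes, 31 calls, had 0 calls without the block and 1, of another gene, with the quartile-range class.

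A few named genes changed direction. Over all cells the log2 fold change was 0.14 for LGALS3 with members from 2 MKI67 UMIs, -0.39 for GZMB, -0.92 for FCER1G and -0.21 for CD3D with classes by TOP2A, and 0.46 for PRF1 with the quartile-range class. In CD8A sp cells the quartile-range class gave 0.0089 for TBX21, 0.49 for GZMB, 0.078 for CCL4, 0.12 for CD8A and 0.38 for IL2RB. In CD4 sp cells IL2RA ranged from -0.67 (without dog 1) to 1.86 and CCL5 from -0.73 (without dog 2) to 2.14 with a dog left out. The causes were not tested.

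Coreceptor shares moved with depth. The difference in CD4 sp cells was -9.48 points at 2000 UMIs per cell, -9.90 at 3000 and 7.98 when a positive cell needed 2 UMIs. For dn cells it was 3.87, 5.31 and -16.3, -11.2 with members from 5 MKI67 UMIs and 6.24 with the quartile-range class. For CD8A sp cells it was 6.31 and 5.71 after thinning, and unthinned 6.25, 1.77 with members from 2 MKI67 UMIs and 11.04 with members from 5. For CD8A sp of single-positive cells it was 17.0 and 13.3 after thinning, and unthinned 6.41, 1.45 with members from 2 MKI67 UMIs and 2.36 when a positive cell needed 2 UMIs. With the quartile-range class, dp cells differed by -7.79, both chains by 8.60, more than 1 TRB by -17.5 and more than 1 TRA by -8.50 points. With members from 2 MKI67 UMIs they made up 1.24% of the cells.

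Leaving out each dog in turn gave 0.783 to 0.978% members. The unthinned differences in points ranged from -1.27 to 2.08 for CD4 sp cells, 3.63 to 7.84 for CD8A sp cells, 3.22 to 8.55 for CD8A sp of single-positive cells, -9.22 to -6.40 for dn and 0.0734 to 2.19 for dp cells. For expanded clones, -2.73 points, other settings gave -0.450 (members from 5 MKI67 UMIs) to -11.0 (clones of at least 3 cells). Without a dog they ranged from -7.97 to 0.272 for expanded clones, -9.33 to -0.537 within CD4 sp and -22.1 to -6.43 within CD8A sp cells. For the chains they ranged from 15.4 to 22.4 (TRA), 5.29 to 10.6 (TRB), 15.7 to 21.4 (both), 2.87 to 3.70 (more than 1 TRA) and 1.79 to 4.36 (more than 1 TRB). Genes ranged from 1715 to 2018 higher and 1902 to 2097 lower over all cells, 1130 to 1385 and 1096 to 1332 in CD4 sp cells, 916 to 1100 and 754 to 1074 in CD8A sp cells, and 7 to 22 for the difference. Depth limits what the small classes can show, since 4 of the 8 sums of single-positive members held at most 20 cells.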
